A study of Mus musculus with 3 samples.

Results

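Nonsense-mediated decay (NMD) transcripts are splice forms whose annotated reading frame ends at a stop codon well before the last exon junction. They were examined in RNA from the cytosolic fraction of mouse macrophages. Members were selected on the measured values themselves. A transcript was kept if the annotation types it as nonsense_mediated_decay and its mean abundance over 3 libraries was at least 0.5 TPM (a transcript abundance scaled for length and library total) in both deposited transcript tables. The rule gave 629 transcripts in 563 genes. These were 8.75% of the 7186 NMD transcripts among 141767 transcripts present in both tables, and 3.94% of the 15960 transcripts of any type that passed the same threshold. Because TPM chose the members, their levels and shares are descriptions and carry no test.

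In the NMD pathway, a ribosome that stops upstream of an exon junction complex, the protein mark left on messenger RNA by splicing, recruits UPF proteins, and the RNA is then degraded. Decay takes place mainly during translation in the cytoplasm. Splicing regulators are well known to use it on their own messages, through "poison" exons that carry a stop codon in frame. The libraries measured abundance at 1 time, so rates of decay were not measured.

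All 3 libraries (replicates 1, 2 and 3) formed a single group. The cells were bone marrow-derived macrophages, which are primary cells grown from marrow progenitors, of the C57BL/6J strain. Each library came from the cytosol of cells given 100 ng/ml Lipid A, the Toll-like receptor 4 agonist of bacterial lipopolysaccharide, for 40 min. Ribosomal RNA was depleted from 1 µg of RNA. The replicates have separate sample records but 1 donor record, so separate animals are not known. The p-values below therefore refer to the spread among these libraries alone, part of which could be technical. Unstimulated cells and other fractions were not analysed here.

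All 8 macrophage markers, Adgre1 and Csf1r among them, were present, with mean gene levels between 25.7 and 5974 TPM in the first table. Neutrophil markers reached at most 5.98 TPM, and those of lymphoid, stromal, erythroid and mast cells at most 0.0433 TPM. Depth was 37131718 to 58879279 expected counts per library over transcripts of the first table, of which members held 286992, 320330 and 439966 in replicates 1, 2 and 3. Replicate 3 stood apart. A sum of 4 RNAs known for their nuclear location, Malat1, Neat1, Xist and Kcnq1ot1, was 322.8, 282.2 and 980.9 TPM in replicates 1, 2 and 3. Of all TPM, 32.8%, 36.2% and 23.5% fell to nuclear protein-coding genes in the first table, and 15.3%, 18% and 7.03% in the second. For that reason the members are given mainly as a share of their own gene's TPM.

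The inserted exons of splicing regulators and of 2 other genes show what such a transcript looks like. Each line gives the exon of the NMD transcript that no protein-coding transcript of the gene overlaps, read 5′ to 3′ from its first base through the stop codon, which is in capitals. The sequences come from GENCODE M21 transcripts on build mm10. Srsf3-201 carries an exon of 456 bases at chr17:29039454-29039909 (+ strand), of which the first 34 bases are shown. Exons of 306 bases at chr6:49252803-49253108 (− strand) in Tra2a-202 and of 276 bases at chr16:22258986-22259261 (− strand) in Tra2b-206 begin with the same 9 bases. Rbm39-225 has an exon of 73 bases at chr2:156178880-156178952 (− strand). The exon of Ostf1-205 spans 77 bases at chr19:18598913-18598989 (− strand), and that of Klf6-203 spans 68 bases at chr13:5863558-5863625 (+ strand).
Srsf3-201: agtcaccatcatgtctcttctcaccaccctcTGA
Tra2a-202: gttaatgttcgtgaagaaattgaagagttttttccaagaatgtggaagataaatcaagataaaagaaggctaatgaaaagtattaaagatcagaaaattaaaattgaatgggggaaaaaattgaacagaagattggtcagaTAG
Tra2b-206: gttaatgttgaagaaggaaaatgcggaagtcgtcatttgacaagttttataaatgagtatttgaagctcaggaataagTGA
Rbm39-225: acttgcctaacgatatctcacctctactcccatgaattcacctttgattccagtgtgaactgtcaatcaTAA
Ostf1-205: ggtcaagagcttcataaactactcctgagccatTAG
Klf6-203: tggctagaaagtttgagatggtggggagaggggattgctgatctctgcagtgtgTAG

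Inserted exons were 1 of several ways in which members differed from the protein-coding transcripts of their genes. An internal exon that overlaps no coding transcript's exon was present in 154 members (24.5%). Another 187 (29.7%) had added bases of a different kind, such as a lengthened exon. A further 262 (41.7%) had a junction of their own and no added base, as when an exon is skipped. There were 23 members made only of bases and junctions that coding transcripts also have, Srsf2-204, Gusb-206 and Hnrnpa2b1-207 among them. The remaining 3 (Gm20716-201, Gm21985-201 and Gm21988-201) lie in genes with no coding transcript annotated. These classes were drawn up after the data had been seen. Among the 141 members with exactly 1 inserted exon, its median length was 97 bases (20 to 940), 48 had a length divisible by 3, and in 115 the stop codon lay inside the inserted exon.

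The position of the stop codon is what defines this type in the annotation. A stop was annotated for 628 members, and in 624 of them (99.4%) it lay more than 50 bases before the last exon junction of the spliced transcript, against 0.299% of 12050 protein-coding transcripts over the same threshold with an annotated stop. The median distance was 360 bases (29 to 12430), with a median of 3 junctions downstream. Reading frames were short, at a median of 249 bases against 1191 in the coding transcripts. Whole transcripts were shorter too, with a median of 1386 against 2499 bases and of 7 against 8 exons. The start of the reading frame was not found in the annotation for 144 members, whose frames and lengths are therefore those of incomplete models. Stop codon use was alike in kind: TAA, TAG and TGA ended 25.5%, 21.2% and 53.3% of members, and 26.2%, 22.5% and 51.3% of coding transcripts. The stop of 431 members fell in an exon that coding transcripts also use and that of 197 outside one. Support for the models was mixed, with 233 members at annotation support level 1, the best grade, and 197 at level 5, where no single deposited RNA supports the whole structure.

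**Figure D1:**
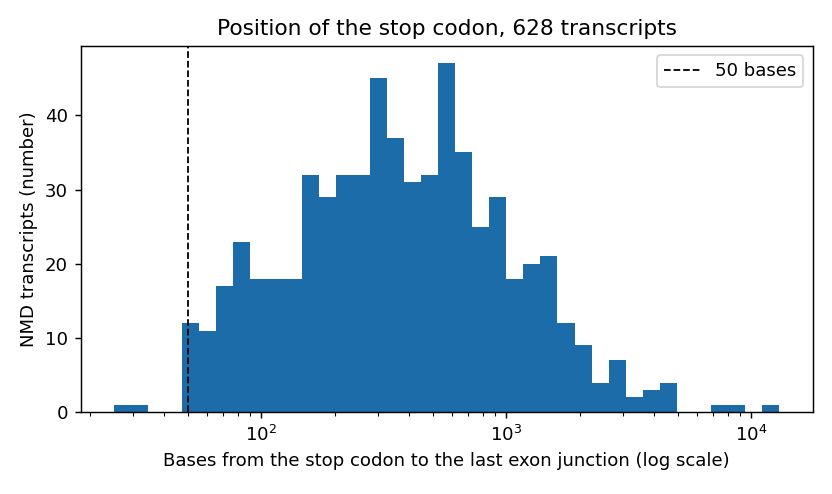
Histogram of the distance from the stop codon to the last exon junction in the spliced transcript (bases, log scale) for the 628 members with an annotated stop; bars count transcripts and the dashed line marks 50 bases. Nearly all lie right of the line, with a median of 360 bases.

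The stop codon of the leading members outside these exons is shown with 12 bases on either side along the spliced transcript, the stop in capitals. The first base of each stop is at chr11:6418241 (+) for Ppia-201, chr1:144248607 (−) for Rgs1-204, chr1:178325283 (−) for Hnrnpu-206, chr1:160197008 (+) for Mrps14-201, chr9:90062723 (+) for Ctsh-202, chr10:77560178 (+) for Itgb2-204, chr2:162932964 (+) for Srsf6-201 and chr11:72740498 (+) for Ankfy1-202. The windows of Lilr4b-213 (chr10:51481182, +) and Lilrb4a-205 (chr10:51491476, +) have identical letters. How reads of these paralogs were divided was not tested.
Ppia-201: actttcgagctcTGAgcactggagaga
Rgs1-204: ccaaagactttaTAAggggaactcttg
Hnrnpu-206: ctgtgtgaagagTAAaaggggcccaac
Mrps14-201: gagaatgttgcgTGAtttgaagagacg
Ctsh-202: aaacagtggcatTGAaccagttttcag
Itgb2-204: ctgtggcaaatgTAGttgcaagcccgg
Srsf6-201: gccttttgccatTAGacgcagggtgat
Ankfy1-202: tgtaaaccccttTGAagacctccctgt
Lilr4b-213: agccaggctctgTGAtcgctgcgtata
Lilrb4a-205: agccaggctctgTGAtcgctgcgtata

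Most members were low in absolute terms. The median of mean TPM was 2.29 in the first table and 1.27 in the second, and 13 and 5 members reached 50 TPM. Just inside the threshold were Htra2-205 (1.26 TPM in the first table, 0.503 in the second), Tpra1-205 (2.19 and 0.503) and Pggt1b-202 (0.58 and 0.504). Just outside were Zfp236-206 (1.06 and 0.499), Chd2-218 (0.717 and 0.498) and Zbtb41-202 (0.74 and 0.497). Among all annotated NMD transcripts, 2159 were listed at 0 TPM in every library of both tables.

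Within their genes the members were a sizeable minority. The share of a gene's TPM held by its members had a median over the 563 genes of 17.1%, 20.2% and 17.2% in replicates 1, 2 and 3 of the first table, and of 22.8%, 24.7% and 22.0% in the second. Averaged over libraries, the median share was 17.8% in the first table, with quartiles of 7.69% and 37.5%. The quartiles in the second were 11.2% and 42.0% around 22.2%. A share moved between libraries by a median SD of 4.34 percentage points in the first table and 4.66 in the second (n = 3). Since the cells were measured in bulk, fewer cells using a splice form and less of it per cell cannot be told apart.

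**Figure D2:**
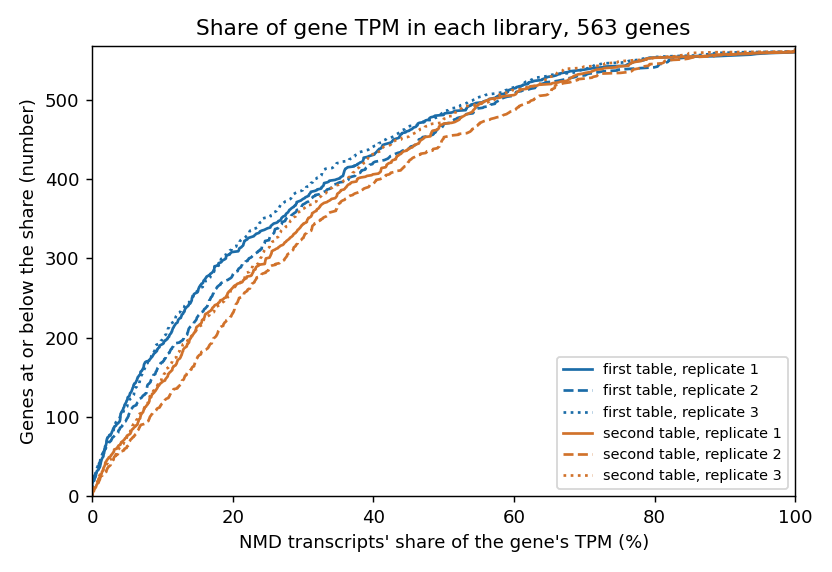
Cumulative number of genes (y axis) at or below each NMD share of the gene's TPM (x axis, %), 1 line per library (solid, dashed and dotted for replicates 1, 2 and 3) in the first (blue) and second (orange) transcript table. The second table's lines lie to the right at low shares, with medians of 22.0% to 24.7% against 17.1% to 20.2%.

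A smaller set of genes was read mostly as NMD transcripts. The mean share was at least 50% in 84 genes in the first table and 100 in the second, 71 of them in both. In 43 genes the share was at least 50% in every library of both tables, and in 179 it was at least 20% throughout. These counts include Gm20716, Gm21985 and Gm21988, where no coding transcript is annotated and the share was 100%. They also include Gm38394, at a mean of 50% in the first table from a member with no own base or junction. Single members were the most abundant transcript of their gene in all libraries of both tables in 67 cases. Summed over genes, members still held little of the message. They made up 1.28%, 1.54% and 1.34% of the TPM of protein-coding genes in the first table (1.38% ± 0.136, SD, n = 3) and 1.5%, 1.74% and 1.5% in the second (1.58% ± 0.136).

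Mrps14, a protein of the small subunit of the mitochondrial ribosome, had the highest share among the 387 genes with a mean of at least 5 TPM in both tables. Mrps14-201 held 88.5%, 94.3% and 86.0% of the gene's TPM in the first table and 88.1%, 94.0% and 84.8% in the second, in replicates 1, 2 and 3. Without length scaling, as a share of expected counts, its mean in the first table was 63.2%, against 89.6% of TPM. The gene itself was at 18.2, 15.6 and 11.9 TPM in the first table. Replicate 2 was highest in both tables.

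Hnrnpu, which encodes a nuclear RNA- and chromatin-binding protein, came next, and at a much higher level. Hnrnpu-206 stood at 60.9, 64.0 and 53.8 TPM in replicates 1, 2 and 3 of the first table, which was 78.5%, 81.5% and 80.1% of the gene. In the second table it held 78.8%, 84.0% and 79.9%. Its stop ends a reading frame of 2379 bases, against a median of 249 in members, and lies 183 bases before the last junction. The interval that the authors give for each TPM in the first table spanned at most 2-fold for this transcript in every library.

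The other genes of that top 10 include enzymes and subunits of the mitochondrion. Ndufs4, a subunit of respiratory complex I, had shares of 73.0%, 74.8% and 76.1% in the first table and 76.5%, 78.2% and 79.5% in the second, from 2 members. Its mean share of expected counts in the first table was 51.1%, against 74.6% of TPM. Sdhaf2, an assembly factor of succinate dehydrogenase, had 67.4% ± 6.13 in the first table and 66.5% ± 4.85 in the second. Cdipt, the enzyme that makes phosphatidylinositol, was among the most even of these genes, at 66.9%, 68.3% and 69.1% in the first table and between 66.2% and 67.1% in the second. Its mean share of expected counts in the first table was higher, at 79.3% against 68.1% of TPM. Bak1, described below, also rose, to 79.3% against 75.8%. Zdhhc3, a palmitoyltransferase of the Golgi, had 79.4% ± 4.92 and 80.2% ± 4.06 in the first and second table, with 2 members that end at the same stop codon. For Senp2, a protease that removes SUMO, the values were 61.5% ± 1.96 and 69.3% ± 4.4. Sra1, known both as a noncoding co-activator RNA and as a protein gene, had 70.6% ± 5.76 and 64.6% ± 3.97.

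Bak1 and Ppia were less even. Bak1, a pro-apoptotic protein of the outer mitochondrial membrane, had shares of 62.1%, 85.6% and 79.8% in the first table and 54.9%, 85.8% and 61.2% in the second, so replicate 2 was highest in both. Ppia, or cyclophilin A, is an abundant prolyl isomerase, and Ppia-201 was the most abundant member at 355.6, 569.4 and 228.2 TPM in the first table. It held 64.0%, 88.1% and 62.4% of its gene there and 65.4%, 90.9% and 70.0% in the second table. Replicate 2 was again above the others in both tables. Ppia is known to have many processed copies in the genome, whose part in these values was not tested, and the interval of Ppia-201 in the first table was within 2-fold in every library.

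**Figure D3:**
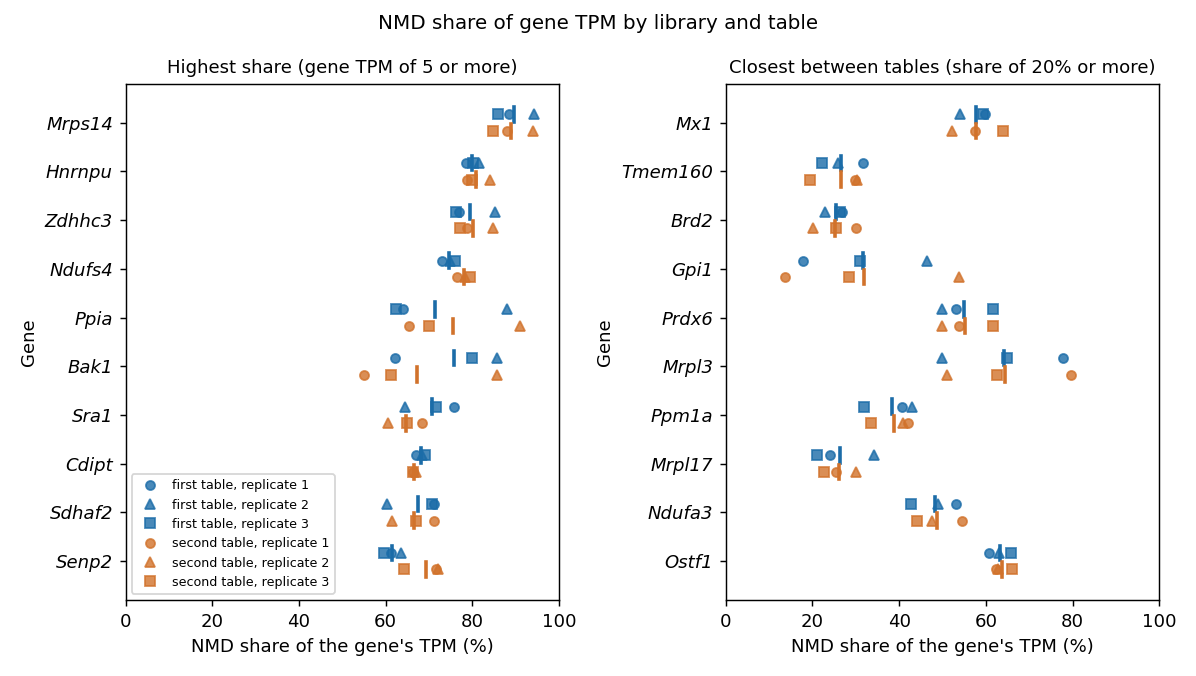
NMD share of the gene's TPM (x axis, %) in each library for the 10 genes with the highest share (left) and the 10 whose mean share was closest between tables (right); circles, triangles and squares are replicates 1, 2 and 3, blue is the first and orange the second table, and short bars are means. Cdipt, Hnrnpu and Ostf1 are tight, while Ppia, Bak1, Gpi1 and Mrpl3 spread over more than 20 points.

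The genes closest between the tables show how far 3 libraries can still differ where both quantifications meet. Mx1, an interferon-induced antiviral GTPase, had 59.8%, 54.2% and 59.4% from 3 members in the first table and 57.4%, 52.2% and 63.9% in the second. Prdx6, an antioxidant enzyme, had 54.9% ± 6.15 and 55.1% ± 5.97, and Brd2, a reader of acetylated histones, 25.4% ± 2.11 and 25.3% ± 4.93. In Gpi1, a glycolytic isomerase, the mean shares of 31.8% and 32.0% came from 17.9%, 46.5% and 31.0% in the first table and 13.7%, 53.9% and 28.4% in the second. Without length scaling, as a share of expected counts, the mean for Gpi1 was 12.5%. Mrpl3, of the large mitochondrial ribosomal subunit, ran the other way, with 77.7%, 49.9% and 64.9% in the first table. Replicate 2 was thus highest for Gpi1 and lowest for Mrpl3 in both tables. Tmem160, Ppm1a, Mrpl17 and Ndufa3 had mean shares of 26.6%, 38.5%, 26.4% and 48.2% in the first table.

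Rgs1 and Ostf1 had members that were both abundant and the larger part of the gene. Rgs1, a regulator of G-protein signalling induced in activated leukocytes, had Rgs1-204 at 210.5, 277.6 and 146.7 TPM in the first table. With the low Rgs1-206 it made up 58.8%, 63.9% and 62.6% of the gene there and 60.7%, 62.9% and 66.0% in the second table. Ostf1 encodes an SH3 adaptor protein, and Ostf1-205, with the inserted exon shown above, was at 93.8, 99.3 and 88.6 TPM. Its share was 60.7%, 63.0% and 65.8% in the first table and 62.3%, 62.8% and 66.1% in the second. In both genes every library of both tables was above 50%, and the intervals of Rgs1-204 and Ostf1-205 were narrow by the 2-fold rule.

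Splicing regulators are the textbook users of poison exons, and both lists of their genes held members. Of 13 SR protein genes, which encode serine- and arginine-rich splicing factors, 11 have an annotated NMD transcript, and 5 of their 19 annotated NMD transcripts (26.3%) were members. Among 33 genes for hnRNPs and related regulators the count was 14 of 55 (25.5%), in 11 genes. Over all protein-coding genes it was 628 of 7183 (8.74%). That total is over 21951 genes, of which 9485 reached 1 TPM in the first table. In the lists, 12 of 13 and 33 of 33 genes did. Genes with a member, relative to those at 1 TPM or more, came to 41.7% (SR list), 33.3% (hnRNP list) and 5.93% (all protein-coding genes). The differences were not tested. The median share of the gene was 13.6% in the first table and 22.6% in the second for the SR list, and 15.5% and 15.1% for the hnRNP list, beside 17.8% and 22.2% over all genes with members.

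Srsf2 and Srsf3, which bind exonic enhancers, led the SR genes in gene TPM. Srsf2-204 held 28.2%, 42.4% and 27.2% of its gene in the first table and 21.4%, 26.7% and 19.2% in the second, highest in replicate 2 in both, and a mean of 10.9% of expected counts against 32.6% of TPM in the first table. Srsf3-201, with the 456-base exon, was at 4.74, 5.21 and 2.15 TPM in the first table. Its share was 18.3%, 24.1% and 10.5% there and 27.9%, 38.3% and 18.1% in the second, in the same order of libraries. Tra2b-206 had 15.5%, 10.5% and 14.8% in the first table and 22.8%, 19.9% and 25.3% in the second. Tra2a-202, from the paralog of Tra2b, was lower, with 4.88%, 5.19% and 6.36%, and 12.2%, 17.0% and 19.5%. For Tra2a and Tra2b the values of the 2 tables did not overlap.

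Srsf6 showed the widest gap between tables among the splicing regulators that are named. Srsf6-201 held 13.0%, 15% and 2.49% of the gene's TPM in the first table and 49.2%, 54.4% and 36.4% in the second. Its interval in the first table was wider than 2-fold in at least 1 library. The tables did not overlap.

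Within the hnRNP list, Hnrnpu stood far above the others. Hnrnpdl and Hnrnpll followed at mean shares of 35.1% and 35.3% in the first table and 42.4% and 38.9% in the second. Hnrnpd, an AU-rich element binding protein, came to 23.6% ± 9.49 in the first table and 18.9% ± 2.96 in the second. Hnrnpa1-203 held 16.7%, 24.6% and 17.4% in the first table, and Clk1, a kinase of SR proteins, had 15.4% ± 1.86. Rbm39, a splicing factor with RRM domains, had 15.5% ± 1.97 and 19.1% ± 1.72 in the first and second table from 3 members, all with an inserted exon. Hnrnpk, Hnrnpl and Hnrnpa2b1 were strongly expressed genes with very small NMD shares of 1.43% ± 0.0814, 1.96% ± 0.0460 and 1.66% ± 1.33 in the first table.

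The core NMD machinery gave no member. All 21 genes listed for NMD factors and the exon junction complex reached 1 TPM, but they have only 6 annotated NMD transcripts, in 4 genes, and none passed the threshold in either table. The Toll-like receptor 4 and NF-kB list had no member either. Its 36 genes have 13 annotated NMD transcripts, of which 2 passed in the first table, 2 in the second and none in both. These counts of 0 stand beside 8.74% over all protein-coding genes and, with so few annotated NMD transcripts, are not read as a feature of either list. Stress-response genes known for upstream reading frames have no NMD transcript in this annotation. Among 27 early response genes 1 has such a transcript, Klf6-203, and it was a member. Klf6 encodes a zinc-finger transcription factor, and the share was 1.43%, 1.38% and 1.54% in the first table and 3.54%, 2.65% and 5.69% in the second, so the tables did not overlap.

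Ribosomal protein genes contributed abundant members as well as members with very small shares. In 11 of 92 genes 13 of 26 annotated NMD transcripts were members (50%, beside 8.74% over all protein-coding genes). Relative to genes at 1 TPM or more in the first table, genes with a member came to 12.8%, beside 5.93% over all protein-coding genes. Rpsa-206, of the laminin receptor and small subunit protein, was at 57.1%, 31.4% and 58.6% in the first table and 72.8%, 59.3% and 72.5% in the second, so replicate 2 was lowest in both. Rps9-210, by contrast, held 0.448% ± 0.225 and 0.454% ± 0.250 of a gene at 339.8 to 542.5 TPM in the first table. Rps19-205 had 8.07% ± 2.90 and 12.9% ± 4.31. Ribosomal protein genes are known for near-identical processed copies, whose part in these values was not tested. The intervals of Rpsa-206, Rps19-205 and Rpl12-201 were within 2-fold in every library of the first table. Eef1b2, a subunit of the elongation factor 1 exchange complex and a gene of the same kind, had 44.2% ± 3.20 in the first table and 48.5% ± 3.41 in the second.

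Rpl13a held 2 members that differed in opposite directions in replicate 2. Rpl13a-205 was at 95.7, 7.69 and 26.1 TPM in replicates 1, 2 and 3 of the first table, and Rpl13a-216 at 60.1, 160.3 and 39.5 TPM. The second table had the same order, with 62.4, 7.91 and 17.3 TPM, and 40.7, 102.4 and 17.4 TPM. Their summed share was steadier, at 28.3%, 25.6% and 18.3% in the first table.

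For Rpl12 and Rps12 the level of the whole gene was far lower in the second table. Rpl12-201 was at 98.2, 214.1 and 67.5 TPM in the first table and 1.03, 0.823 and 0.440 TPM in the second. The gene as a whole was at 250.8, 326.5 and 177.9 TPM and at 2.08, 2.09 and 1.10 TPM. The share was thus of the same order in both, at 47.6% ± 15.6 and 43.0% ± 5.63. Rps12-204 was at a similar level in both tables, 7.32, 5.14 and 3.81 TPM against 3.90, 3.41 and 1.17 TPM, but the gene was at 694.2, 533.5 and 564.0 TPM in the first and 12.8, 26.2 and 5.23 TPM in the second. Its share went from 0.898% ± 0.198 to 22.0% ± 8.80.

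Lysosome and macrophage genes gave 6 members in 5 of 34 genes, out of 9 annotated NMD transcripts (66.7%, beside the same 8.74%). All 34 genes reached 1 TPM in the first table. Relative to genes at that level, those with a member came to 14.7%, beside 5.93% over all protein-coding genes. The highly expressed genes of this list with a member had small shares. Gpnmb, a lysosomal glycoprotein at 2810, 2583 and 2162 TPM in the first table, had 0.808% ± 0.483 in its NMD form. Tyrobp, the signalling adaptor DAP12, had 0.445% ± 0.121. Ctsh, the lysosomal protease cathepsin H, differed from them: Ctsh-202 was at 65.3, 51.5 and 52.9 TPM, or 38.5%, 34.3% and 44.9% of the gene, and at 32.4%, 25.3% and 26.8% in the second table. Fcgr1-202, from the high-affinity IgG receptor gene, ranged from 0.292% in replicate 2 to 12.6% in replicate 1 in the first table, and from 3.04% to 32.8% for the same libraries in the second.

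The inhibitory receptor genes Lilr4b and Lilrb4a, both on chromosome 10, had members among the 10 most abundant. Lilr4b had shares of 46.2%, 46.4% and 47.5% in the first table and 41.1%, 40.3% and 37.0% in the second. Lilrb4a was less even, at 62.6%, 49.9% and 38.0%, and 51.8%, 65.0% and 24.1%. The intervals of Lilr4b-204, Lilr4b-213 and Lilrb4a-205 were within 2-fold in every library of the first table. Selenok, an endoplasmic reticulum selenoprotein, was the only one of 21 selenoprotein genes with a member. Just 6 of the 21 have an annotated NMD transcript, and 1 of 9 such transcripts was a member (11.1%, beside 8.74% over all protein-coding genes). The share of Selenok was 22.7%, 42.2% and 8.88% in the first table and 48.1%, 60.3% and 47.9% in the second. The tables did not overlap for Selenok.

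The quantifications were then set side by side over all members. The second table runs on a lower scale, with a median log2 ratio of second to first of −0.93 in members and −1.24 over all 15960 transcripts above the threshold. TPM values of the 3 libraries were higher in the first table without overlap for 213 of 629 members, where the share over all such transcripts was 64.9%. They were higher in the second table for 6 members, beside 0.52% over all. Expressed as a share of the gene, which removes that scale, 127 of 627 members were higher in the second table without overlap, beside 11.1% over all, and 45 were higher in the first, beside 16.7%. The members' summed share of their gene was higher in the second table than in the first in 380 genes and lower in 179. Both tables hold the same libraries and chose the members, so no test was made. The comparison of shares was added after the data had been seen.

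Most genes were nevertheless close. In 420 of 563 genes the mean shares lay within 10 percentage points, and over genes they had a Pearson correlation of 0.894, a description over points that share libraries and depth. There were 19 genes more than 25 points apart, all of them higher in the second table. Ankfy1, an endosomal effector of phosphatidylinositol 3-phosphate, was the extreme, with 5.87%, 3.35% and 4.82% in the first table and 74.6%, 76.9% and 75.6% in the second. Pik3cb, a catalytic subunit of phosphoinositide 3-kinase, had 22.0% ± 14.8 against 63.8% ± 4.76. Il4ra, the interleukin 4 receptor alpha chain, had 39.3% ± 8.81 against 70.3% ± 3.84. Stard9, a kinesin, had 30.0% ± 4.30 against 70.6% ± 17.5. These last 3 genes were named after their values had been seen.

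**Figure D4:**
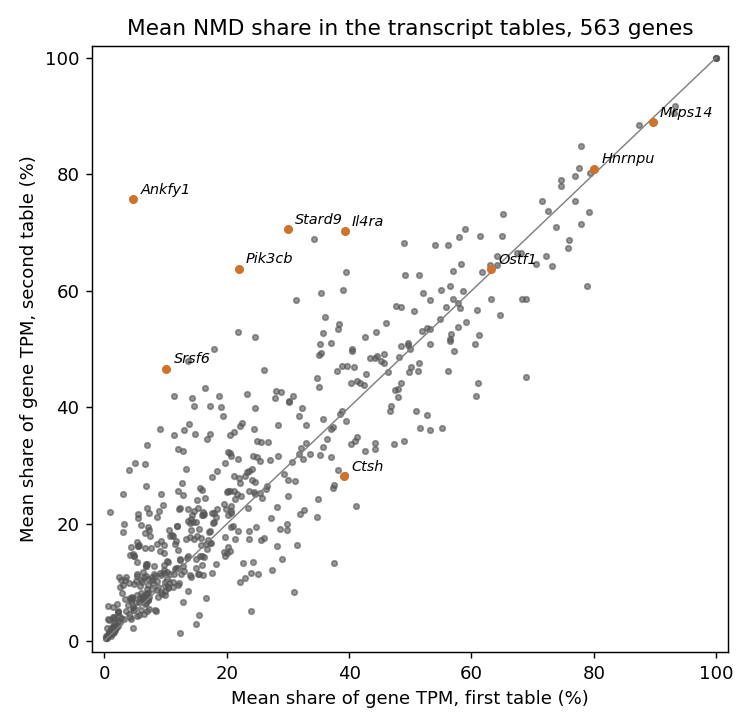
Mean NMD share of gene TPM over 3 libraries in the second (y axis, %) against the first (x axis, %) transcript table, 1 point per gene for 563 genes; the line marks equal shares and named genes are in orange. All 19 genes more than 25 points apart lie above the line, Ankfy1 farthest at 4.68% and 75.7%.

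Members with the widest gap in TPM itself included 3 on each side. Rpl12-201 is described above. Gusb-206, of the lysosomal enzyme beta-glucuronidase, was at 22.1, 1.01 and 25.9 TPM in the first table and 1.45, 0.168 and 0.538 TPM in the second. Mdm2-209, from the gene for the p53 ubiquitin ligase, was at 4.93, 7.85 and 9.37 against 0.433, 1.33 and 0.292 TPM. Higher in the second table were Ankfy1-202, Rgs1-206 and Lars2-209. Rgs1-206 was at 0.99, 0.43 and 1.01 TPM in the first table and 7.47, 6.52 and 4.64 TPM in the second. Lars2-209, from the mitochondrial leucyl-tRNA synthetase gene, was at 0.96, 1.12 and 0.19 against 6.37, 12.5 and 1.51 TPM. Replicate 2 was highest and replicate 3 lowest for Lars2-209 in both tables.

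The first table also gives the authors' interval around each TPM, whose width can depend on abundance as well as on how reads are divided between transcripts. Its upper bound was at most 2 times its lower bound in every library for 251 of 629 members (39.9%). This compares with 77.7% of protein-coding transcripts over the same threshold, 42.1% of retained-intron transcripts and 31.5% of processed transcripts. The level of the interval is not given in the sources used here, and the 2-fold rule was set after seeing the data. Members with a narrow interval had a median share of their gene of 34.7% in the first table and 33.2% in the second, and the others of 9.87% and 13.5%.

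Shares were highest most often in replicate 2. Among genes whose shares were not all equal, replicate 2 had the highest share in 260 of 559 genes (46.5%) in the first table and 290 of 560 (51.8%) in the second. In protein-coding genes with retained-intron transcripts over the threshold it was highest in 47.1% and 48.2% of 720 genes, and for processed transcripts in 51.8% and 53.5% of 716 genes. The pattern was thus also present in the other noncoding splice forms. Replicate 2 also had the lowest nuclear RNA sum and the largest part of TPM in protein-coding genes, as given above, and their part in the result was not tested.

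Whether single members varied between libraries beyond others of their abundance was tested on the rounded expected counts of the first table, with edgeR's goodness-of-fit test against the trended dispersion and Benjamini-Hochberg adjustment over 23395 transcripts. The rule had used the mean over libraries, not the spread. The filter on low counts required enough counts in all 3 libraries. Members near 0 in 1 library were therefore not tested, such as Ap2m1-203 with 458, 0 and 407 counts. Of 554 members tested, 21 (3.79%) varied at an adjusted p under 0.05, beside 1.37% of all transcripts tested. The median SD of log2 CPM (counts scaled to library size) was 0.40 in members and 0.30 over all transcripts, at median levels of 2.50 and 2.55. Replicate 2 was the library farthest from the middle one in 16 of the 21, higher in 9 and lower in 7. The same count was not made over all transcripts, so it is not read as a trait of members. The count was 10 without replicate 1 (1.75%, beside 0.576% over all), 8 without replicate 2 (1.38%, beside 0.477%) and 14 without replicate 3 (2.46%, beside 0.644%). Of the 21, 9, 4 and 14 were called in these fits, and 2 in all of them. Only 1 of the 21 had an interval within 2-fold in every library, and 8 also varied in the second table.

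Itgb2-204 varied most. Itgb2 encodes CD18, the beta chain of the leukocyte integrins, and Itgb2-204 had 323, 5847 and 67 expected counts in replicates 1, 2 and 3 (adjusted p = 2.988e-37, edgeR). The gene as a whole was level, at 129.1, 128.0 and 96.6 TPM. Its NMD share, from this member and Itgb2-205, was accordingly 2.16%, 38.3% and 0.580% in the first table and 1.35%, 22.9% and 1.02% in the second. Replicate 2 was far above the others in both tables, and the second table's counts gave an adjusted p of 5.018e-20 by the same edgeR test.

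The other members with the smallest p-values fell into those high and those low in replicate 2. Psme1-209, from a gene for a proteasome activator subunit induced by interferon, had 25, 757 and 32 counts, and Eif4a1-201, of the translation initiation helicase, 11, 528 and 23. Nabp1-210, from a gene for a single-strand DNA-binding protein, had 17, 584 and 27. The edgeR adjusted p was 3.058e-09 for Psme1-209, 5.048e-08 for Eif4a1-201 and 7.608e-08 for Nabp1-210. Gusb-206 was low in replicate 2, with 2473, 106 and 5870 counts (adjusted p = 2.017e-17). So were Arf4-203, of a small GTPase of the Golgi, with 426, 17 and 2342, Rpl13a-205 with 2446, 181 and 1341, and Hnrnpa2b1-207 with 286, 12 and 441. Gusb-206 and Hnrnpa2b1-207 have no base or junction that coding transcripts lack. How their reads were divided between transcripts was not tested. Hk3-204, of a hexokinase of myeloid cells, was instead low in replicate 1, with 408, 2079 and 4222 counts. Dhx15-207, of a splicing helicase, was lowest in replicate 3, with 101, 524 and 24.

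**Figure D5:**
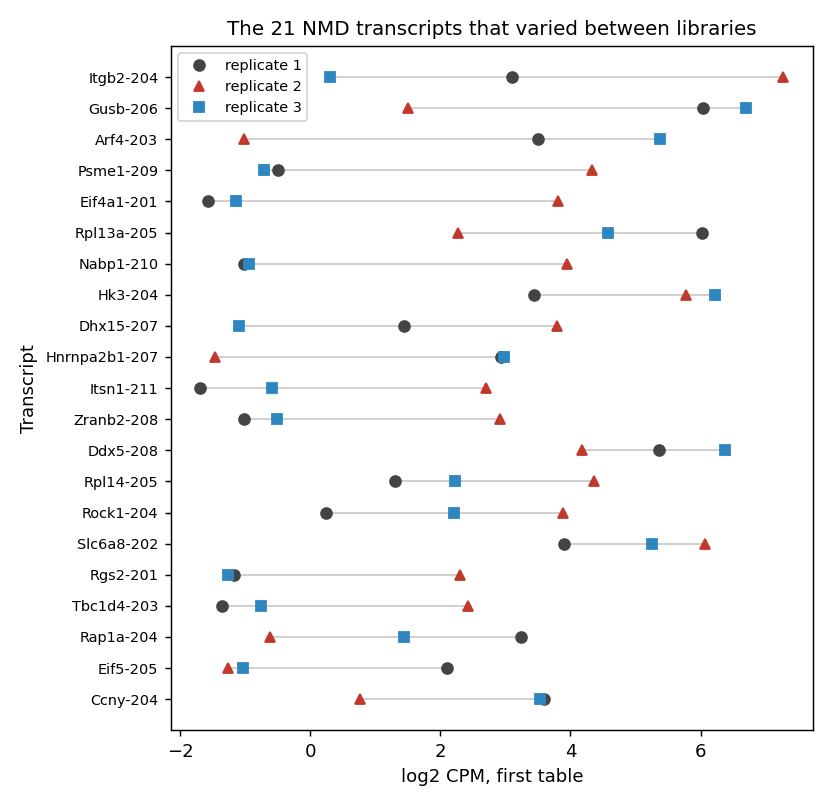
log2 CPM in the first table (x axis) for the 21 members that varied between libraries, ordered from the smallest adjusted p at the top; circles, triangles and squares are replicates 1, 2 and 3 and grey lines join the extremes. Replicate 2 sits at an end for most, above the others for 9 and below for 7 of the 16 where it is farthest out.

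The genes' totals were tested in the same way. On gene counts, 5 of 563 genes with members (0.888%) varied by the same edgeR test, beside 209 of 12250 genes tested (1.71%), and none of them was a gene of the 21 transcripts, whose lowest adjusted p on gene counts was 0.3014. The 5 were Gbp5, H2-Eb1, Mxd1, Rpl22l1 and Taf1d, named here because of their small number. Across the tables the second gave an adjusted p of 0.08786 for Gusb-206, 0.8875 for Arf4-203 and 0.2809 for Hk3-204, so these 3 were called in the first table alone. Rpl13a-205 (1.303e-05), Eif4a1-201 (0.0001308), Nabp1-210 (0.0002514), Dhx15-207 (0.007679) and Hnrnpa2b1-207 (0.009173) varied in the second table too, by edgeR. Psme1-209 was not tested in the second table.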

How the data were processed

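Per the deposited notes, the authors made the gene table, like the first transcript table, from reads aligned to the transcriptome, and these give expected counts and TPM. The second transcript table was quantified without that alignment and gives the authors' estimated counts and TPM. Build mm10 and annotation GENCODE M21 are named there. The sources used here do not name the quantification tools or the use of strand, so overlapping genes and near-identical copies are uncertain. Transcripts were joined by identifier. A share is the summed TPM of a gene's members over the summed TPM of all its transcripts, per library and table, with mean and SD over 3 libraries. Stop codons, junctions and exons were read from GENCODE M21. Counts were rounded for edgeR 4.0.16 (R 4.3.3): filterByExpr, TMM, an intercept-only fit and a goodness-of-fit test at an adjusted p of 0.05. On simulated counts over 23395 transcripts with 1 library raised, it recovered 53 of 100 at 4-fold and 88 of 100 at 8-fold, with 7 false calls. The raised transcripts were drawn only from those above a minimum mean count. Counts followed the dispersion that the test assumes. Errors in dividing reads between transcripts were not simulated, so the false calls do not cover them. Other tables used Python 3.11.15.

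Members, gene lists and rules were chosen with earlier results of these data known. Named genes were the 10 most abundant members, the 10 genes with the highest share and the 10 with the closest tables (gene TPM of at least 5), 6 members farthest between tables, 10 that varied most between libraries, and up to 6 genes per list. Alternatives were another table, expected counts, other thresholds, another normalization and leaving out each library. 1 gene that the rules would name is not reported here.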

Additional observations from a re-analysis of the deposited data

How the results depend on the processing

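No paired analysis was possible because all 3 libraries form 1 group. The count of 629 members was 374 at 1 TPM and 1056 in the first table alone, and lay between 524 and 726 with 1 library left out. The median share of 17.8% was 22.2% in the second table, 11.4% from expected counts, 19.6% with all NMD transcripts of the genes, 23.2% at 1 TPM and 12.3% in genes of at least 5 TPM. With only members of narrow interval, an alternative added after seeing the data, it was 37.6%. It lay between 16.9% and 19.2% with 1 library left out. The 84 genes with a share of at least 50% became 38 among genes of at least 5 TPM. The members' 1.38% of coding-gene TPM was 1.58% in the second table, 0.887% of expected counts and 1.22% at 1 TPM. Against 21 members that varied between libraries (3.79%, beside 1.37% over all), 5 genes with members varied on gene counts, none of them a gene of the 21, and 8 to 14 members with 1 library left out. The count was 20 in the second table (3.38%, beside 1.45%), 29 without a filter on low counts (4.61%, beside 1.17%) and 21 with RLE size factors. The 52 named genes counted here leave out those named only because they varied between libraries or after their values had been seen. Of the 52, 26 had a share in the second table that differed from the first by over 1 SD between libraries. A share of expected counts that did was found in 25. In 10 the latter was over 1.5 times lower than the share of TPM: besides Gpi1 and Srsf2 it was 1.04% for Fcgr1, 0.034% for Gpnmb, 0.412% for Hnrnpk, 0.328% for Klf6, 28.1% for Ndufa3, 12.5% for Selenok, 4.8% for Srsf6 and 8.55% for Tra2b. The median expected count of a member, which bounds precision, was 214.7.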

Other observations

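Among genes of at least 5 TPM in both tables, those whose NMD share moved most between libraries were looked up after the values had been seen. H2-Eb1, a beta chain of MHC class II, had shares of 51.5%, 80.5% and 43.7% in replicates 1, 2 and 3 of the first table and 54.1%, 79.2% and 46.3% in the second. Tmed2, a cargo receptor of early secretory vesicles, was listed at 0, 36.5% and 0 in the first table and 12.6%, 45.2% and 10.2% in the second. Zranb2, a zinc-finger splicing regulator, had 5.98%, 56.7% and 7.41%, and 29.8%, 65.3% and 31.9%. Replicate 2 was highest for all 3 genes in both tables. Pigk, an enzyme of GPI anchor attachment, went the other way, with 32.8%, 0 and 27.8%, and 37.6%, 6.86% and 32.3%. No cause was tested.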
